A study of Homo sapiens with 8 samples.

Results

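Mitochondrial ribosomal protein genes are the nuclear genes named MRPL or MRPS for the large or the small subunit of the ribosome of mitochondria. They were taken as every row of the deposited expression table whose symbol is MRPL or MRPS with a number and, at most, a letter from A to C. This gave 78 genes of 18902 analysed, 49 named MRPL and 29 named MRPS, and all 78 passed the filter on low values.

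RNA was measured in 2 human lines of hepatocellular carcinoma cells, MHCC-97H and MHCC-97L, which were grown in DMEM with fetal calf serum. Each line was measured as a control and with stable expression of Flag-OGT, which gave 4 groups of 2 libraries. OGT encodes O-GlcNAc transferase, which adds N-acetylglucosamine residues one at a time to proteins of the nucleus and cytosol. Flag-OGT was the full-length wild-type human protein with a 3×Flag tag at its C-terminus, delivered in a lentiviral vector that also carries luciferase and G418 resistance, and the cells were selected with neomycin. The controls carry no genotype label, and the sources used here do not give whether they held an empty vector or passed through selection, nor the number of clones behind a Flag-OGT line. The labels do not say whether the 2 libraries of a group came from separate cultures, so p-values measure the spread between libraries, which may be technical.

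Mitochondria keep a small genome that encodes core subunits of the respiratory chain and of ATP synthase, and a dedicated ribosome, the mitoribosome, translates these messages. Its RNAs are made inside the organelle, while every one of its proteins is encoded in the nucleus, made on cytosolic ribosomes and imported. Part of its proteins have counterparts in the bacterial ribosome, and the others are found only in mitochondria. The 0 mitochondrially encoded genes found in the table mean that the products of this machinery could not be followed here.

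Levels are the authors' FPKM, fragments per length of the transcript and per number of mapped fragments, so that genes can be compared with each other. Changes are differences of log2(FPKM + 1), given with the standard error (SE), and a gene is said to rise, fall or be called when its limma p-value, adjusted by Benjamini-Hochberg over 13553 tested genes, was under 0.05. Such a difference understates the change of genes with low values. The number of reads behind the values is not given.

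In the controls of MHCC-97H, OGT read 32.5 and 34.2 FPKM, against 59.0 and 58.4 in the libraries labelled Flag-OGT of that line. In MHCC-97L it read 45.7 and 43.9 in the controls and 51.0 and 54.5 with Flag-OGT. The libraries labelled Flag-OGT stood apart from their controls in far more than OGT. Over 9 markers of hepatocytes and liver cancer cells, the summed level was 5375 to 5617 FPKM in MHCC-97H controls and 54.8 to 56.7 with Flag-OGT, and 6290.3 to 6330.2 against 23.6 to 35.5 in MHCC-97L. KRT8 made up most of each control sum, and 5 of the 9 markers reached 1 FPKM in MHCC-97H controls and 8 in MHCC-97L controls. Of the 8 markers tested, 6 fell and GPC3 rose in MHCC-97H, and 7 fell and GPC3 rose in MHCC-97L. The keratin gene KRT8 went from 3957 and 3735 to 11.1 and 10.9 FPKM in MHCC-97H and from 4140.4 and 4128 to 12.03 and 5.62 in MHCC-97L, and KRT18 fell by 6.72 on the log2 scale in MHCC-97H and fell by 7.11 in MHCC-97L. HNF4A, a regulator of liver cell identity, went from 14.6 in both controls to 0.03 and 0.04 FPKM in MHCC-97H and from 13.9 and 13.4 to 0.02 and 0.01 in MHCC-97L. TTR was listed at 0 in each Flag-OGT library and GPC3 at 0 in each control library. Whether the libraries labelled Flag-OGT come from the same line as their controls was not tested, so each change with Flag-OGT compares libraries as labelled. Summed leukocyte markers (5 genes) went from 80.2 to 82.5 FPKM in MHCC-97H controls to 2.75 to 3.00 with Flag-OGT, and from 69.0 to 69.9 to 7.89 to 8.70 in MHCC-97L. Nearly all of this was CD68, at 79.8 and 77.5 FPKM in MHCC-97H controls. ITGAM also fell, by 1.02 in MHCC-97H and by 1.53 in MHCC-97L, while LYZ was not called in MHCC-97H and rose by 0.60 in MHCC-97L. Endothelial markers (4 genes) went from 31.1 to 31.3 to 0.63 to 0.79 FPKM, and from 43.5 to 45.8 to 1.46 to 1.56. Fibroblast markers (5 genes) went from 9.04 to 12.1 to 19.5 to 19.7 FPKM, and from 4.48 to 5.24 to 14.5 to 15.3. Within that list ACTA2 rose by 4.05 and 3.19 and COL1A1 by 2.24 and 2.60, while LUM fell by 3.40 and fell by 2.39. These shifts move with every Flag-OGT comparison below, and their part in the results was not tested.

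The promoters of 5 members are printed here because their genes mark the ends of the response. MRPS35 and MRPS12 had the lowest mean change over both lines among the 69 members with a RefSeq promoter, and MRPS31 and MRPL37 the highest. MRPS18C, which moved in opposite directions in the lines, held the most kinds of motif. Each sequence runs 5′ to 3′ on the gene's strand from 250 bases before the RefSeq start site to 5 bases after it. Capitals mark the motifs searched, on either strand.
MRPS35 (GRCh38.p14, chr12:27710582-27710836, plus strand): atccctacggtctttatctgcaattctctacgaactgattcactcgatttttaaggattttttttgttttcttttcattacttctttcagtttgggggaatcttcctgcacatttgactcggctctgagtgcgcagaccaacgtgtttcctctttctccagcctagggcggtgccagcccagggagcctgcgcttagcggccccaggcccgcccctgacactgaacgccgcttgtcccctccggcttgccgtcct
MRPS12 (GRCh38.p14, chr19:38930694-38930948, plus strand): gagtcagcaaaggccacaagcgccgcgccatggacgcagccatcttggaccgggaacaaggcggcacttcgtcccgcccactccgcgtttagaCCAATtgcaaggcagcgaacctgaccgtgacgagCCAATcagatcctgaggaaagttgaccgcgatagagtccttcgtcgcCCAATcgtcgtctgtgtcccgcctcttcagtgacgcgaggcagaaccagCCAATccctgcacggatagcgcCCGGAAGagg
MRPS31 (GRCh38.p14, chr13:40771186-40771440, minus strand): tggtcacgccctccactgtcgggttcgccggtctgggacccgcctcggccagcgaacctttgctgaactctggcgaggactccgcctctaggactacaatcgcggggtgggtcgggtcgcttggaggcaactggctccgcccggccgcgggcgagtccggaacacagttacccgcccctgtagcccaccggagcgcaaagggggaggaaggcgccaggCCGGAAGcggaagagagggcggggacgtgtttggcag
MRPL37 (GRCh38.p14, chr1:54199917-54200171, plus strand): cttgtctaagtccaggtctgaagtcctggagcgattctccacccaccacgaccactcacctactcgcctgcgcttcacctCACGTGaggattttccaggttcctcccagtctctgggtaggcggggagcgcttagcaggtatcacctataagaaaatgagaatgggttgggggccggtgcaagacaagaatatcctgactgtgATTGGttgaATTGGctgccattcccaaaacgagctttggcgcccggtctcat
MRPS18C (GRCh38.p14, chr4:83455808-83456062, plus strand): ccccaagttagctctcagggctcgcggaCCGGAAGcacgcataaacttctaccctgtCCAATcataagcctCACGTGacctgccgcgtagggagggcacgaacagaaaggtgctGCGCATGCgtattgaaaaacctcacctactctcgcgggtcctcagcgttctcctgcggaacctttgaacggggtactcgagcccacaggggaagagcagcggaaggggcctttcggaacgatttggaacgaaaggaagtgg

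The motifs searched belong to factors known to act on nuclear genes of mitochondrial proteins, to common promoter elements and to ZNF263, the factor named in the study's title. They were CCGGAAG for ETS factors such as GABPA, AAGATGGCG for YY1, GCATGCGC for NRF1, CACGTG for the E-box that MYC can bind, CCAAT for the CCAAT box and GGAGGAGG for ZNF263, each on both strands. The window searched held 300 bases, of which 50 lie after the start. MRPS35 held none of these letters. MRPS12 held 4 copies of CCAAT, at positions 94, 128, 175 and 224 counted from 1 at the printed 5′ end, and CCGGAAG at 246, across the start site. MRPS31 held CCGGAAG at 219. MRPL37 held CACGTG at 81 and CCAAT on the opposite strand at 204 and 213. MRPS18C held CCGGAAG at 29, CCAAT at 58, CACGTG at 72 and the NRF1 letters on the opposite strand at 115.

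ETS and YY1 letters were more frequent in the promoters of members than in those of tested genes, a description with no test. CCGGAAG stood in 42% of the 69 member promoters, 18.7% of 10591 promoters of tested genes and 10.7% of all 27305 promoters of the RefSeq set. AAGATGGCG stood in 18.8% of member promoters, 3.80% of those of tested genes and 1.85% of all. The 2 motifs begin or end with the same 3 letters and could overlap, but in the 4 members that held both, 0 had matches that shared bases. The NRF1 letters stood in 8.70% of member promoters, 5.40% of those of tested genes and 3.27% of all. CACGTG stood in 8.70%, 10.1% and 7.43%, so members lay below the tested genes and above the whole set. CCAAT stood in 29%, 36.3% and 35.7%, and GGAGGAGG in 7.25%, 13.1% and 10.4%. With or without the ETS letters, members moved in both directions. So did all tested genes, of which 48.2% rose and 36.3% fell in MHCC-97H and 50.1% and 34.7% in MHCC-97L. Of the 29 members with the ETS letters, 13 rose and 12 fell in MHCC-97H, with a median change of -0.02, and of the 40 without them 22 rose and 12 fell, with a median of 0.20. In MHCC-97L the counts were 18 and 6 with them and 29 and 6 without, with medians of 0.47 and 0.57. These are matches of letters and not measured sites, and the split was not tested.

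The members were abundant transcripts in every library. The mean over all 8 libraries was 100 FPKM or more for 16 members and under 20 for 10. MRPL12, MRPL24 and MRPL41 had the highest means, at 288, 274 and 217 FPKM, and MRPL19, MRPS36 and MRPL1 the lowest, at 6.15, 8.25 and 9.64. Although mitoribosome proteins are assembled into 1 particle, their mRNAs spread widely, and the highest member of a library was 55.9 to 97.4 times its lowest. The leading gene changed with the group. MRPL24, a large-subunit protein that binds early in assembly of the bacterial ribosome, led all 4 control libraries, at 276 to 490 FPKM. MRPL37, a protein found only in mitochondrial ribosomes, led both MHCC-97H Flag-OGT libraries at 342 and 343 FPKM, and MRPL41, another mitochondria-specific protein, led the MHCC-97L Flag-OGT libraries at 401 and 350.0.

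The sum over members rose with Flag-OGT in the deposited values. It was 4383 and 4356 FPKM in MHCC-97H controls and 4998 and 5012 with Flag-OGT, a ratio of 1.15. In MHCC-97L it was 5370.3 and 5403.5 in the controls and 7138 and 6959 with Flag-OGT, a ratio of 1.31. As a share of the summed FPKM of a library, members held 0.855% and 0.853% in MHCC-97H controls, 0.938% and 0.944% with Flag-OGT, 0.959% and 0.960% in MHCC-97L controls and 1.16% and 1.15% with Flag-OGT. The groups did not overlap in either line. Under median-of-ratios scaling, which sets the typical gene equal across libraries, the ratio in MHCC-97H turned to 0.994, while that in MHCC-97L was 1.13. In bulk RNA, fewer cells of a kind and less RNA per cell cannot be told apart. MRPL genes made up 3023 to 3054 FPKM of the sum in MHCC-97H controls and 4943 to 5129 in MHCC-97L with Flag-OGT.

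**Figure D1:**
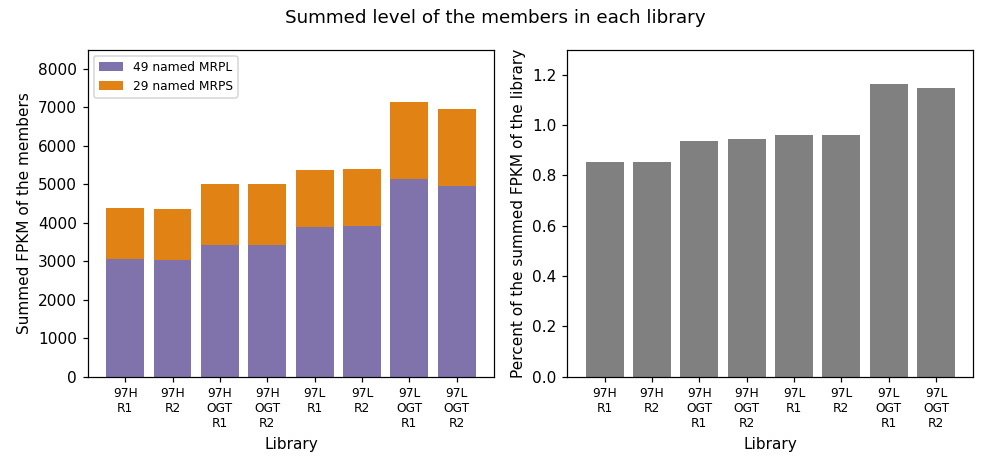
Summed FPKM of the 78 members in each of the 8 libraries (left, stacked bars of the 49 MRPL and 29 MRPS genes) and the same sum as a percent of the library's summed FPKM (right). The bars run from 4356 FPKM in an MHCC-97H control to 7138 FPKM in an MHCC-97L Flag-OGT library.

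In MHCC-97H the members split in both directions. With Flag-OGT, 39 of 78 rose and 27 fell, where 48.2% of all tested genes rose and 36.3% fell, so the members' shares were near the background. Changes of at least 1 on the log2 scale, a doubling or more of FPKM + 1 or the reverse, were called upward in 11 members and downward in 5, against 22.3% and 16.0% of all tested genes. The median change of members was 0.12, beside 0.15 for all tested genes, with quartiles of -0.40 and 0.81. The libraries of both groups did not overlap for 40 members higher and 32 lower, while 52.0% and 39.5% of all tested genes were so. Under median-of-ratios scaling, which moved the median of all tested genes from 0.15 to -0.003, 32 members rose and 36 fell and the median of members was -0.07.

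In MHCC-97L more members rose. With Flag-OGT, 52 of 78 rose and 14 fell, which is 66.7% and 17.9%, where 50.1% of all tested genes rose and 34.7% fell. Changes of at least 1 were called upward in 15 members and downward in 4, against 18.6% and 16.1% of all tested genes. The median change of members was 0.51, with quartiles of 0.02 and 0.87, beside 0.19 for all tested genes. Here 56 members were higher and 16 lower without overlap of the libraries, against 53.8% and 38.3% of all tested genes. Under median-of-ratios scaling, where the median of all tested genes was 0.02, that of members was 0.31, with 45 members higher and 20 lower.

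Read member by member, 38 rose in both lines, 13 fell in both, 6 fell in MHCC-97H and rose in MHCC-97L, and 0 did the opposite. Among all tested genes 40.0% rose in both lines, 27.4% fell in both, and 3.30% moved in each of the opposite ways, beside 48.7%, 16.7%, 7.69% and 0 of members. The 3 members called in neither line were MRPL33, MRPL35 and MRPS6.

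**Figure D2:**
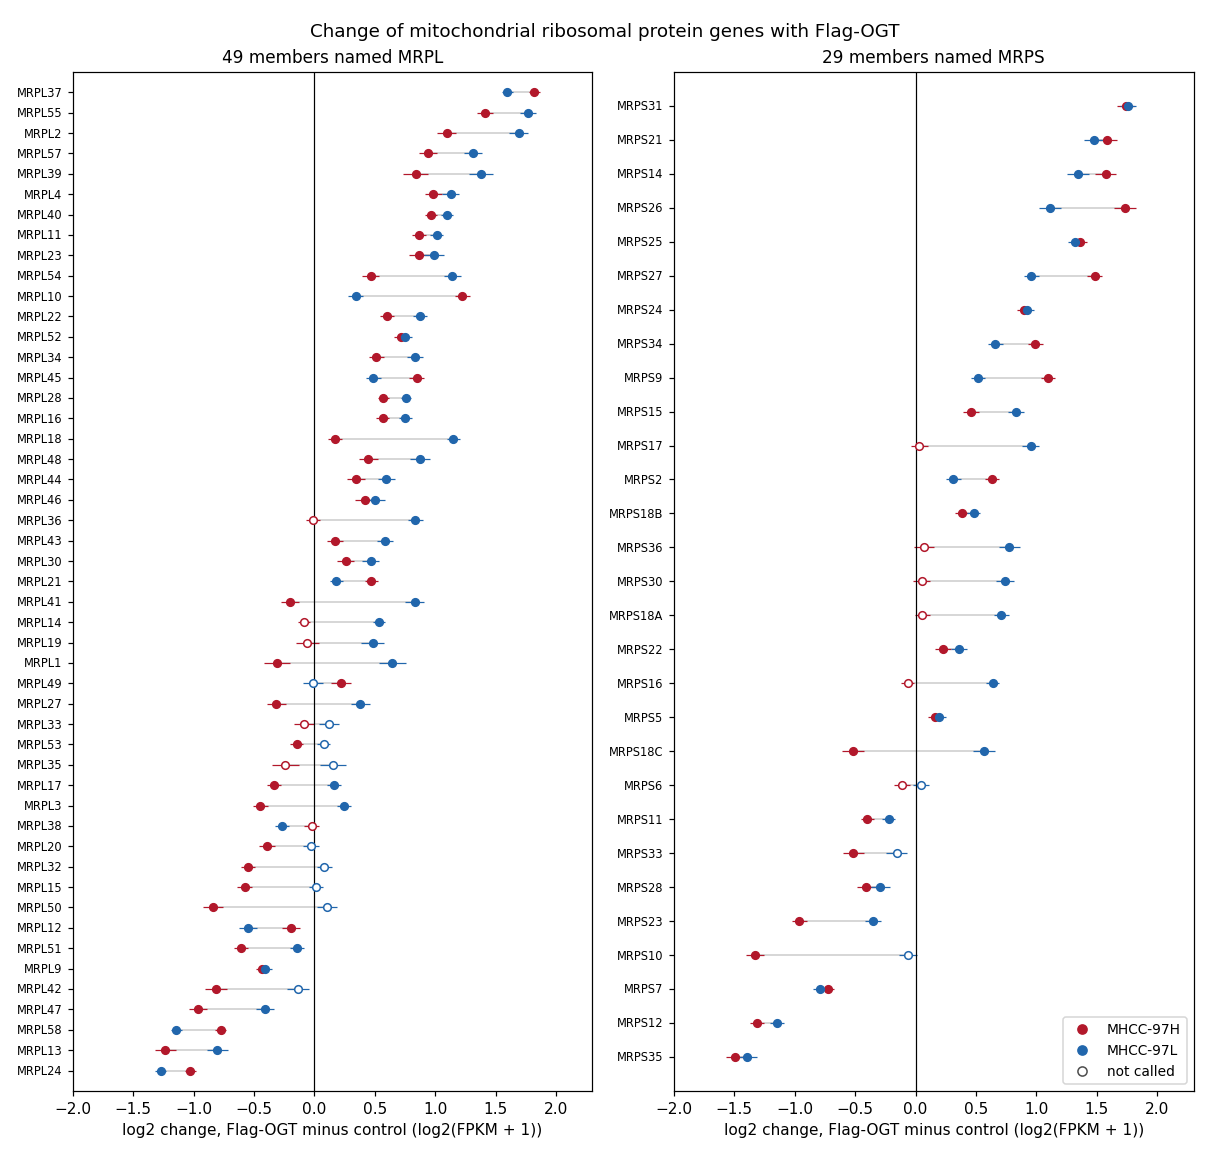
Change of each member with Flag-OGT on the log2(FPKM + 1) scale, with its SE, for 49 MRPL genes (left) and 29 MRPS genes (right), ordered by the mean of both lines. Red points are MHCC-97H, blue points MHCC-97L and open points were not called. MRPL37 and MRPS31 head the panels, and MRPL24 and MRPS35 close them.

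The largest rises in both lines came from a few genes of each subunit. MRPL37, a mitochondria-specific protein of the large subunit, read 96.0 and 96.5 FPKM in MHCC-97H controls and 342 and 343 with Flag-OGT, and 72.9 and 75.1 against 229 and 223 in MHCC-97L. The groups lay far apart in both lines, with log2 changes of 1.82 ± 0.05 (SE, adjusted p = 1.0e-10) and 1.60 ± 0.05 (adjusted p = 3.1e-10). MRPL37 shares exonic sequence with CYB5RL and SSBP3 in the GENCODE annotation, and the sources used here do not give whether reads were counted by strand. MRPL55, the counterpart of bacterial L31, went from 56.1 and 52.4 to 147 and 145 FPKM in MHCC-97H and from 88.9 and 85.1 to 318 and 281 in MHCC-97L. It rose by 1.42 and 1.77, and the MHCC-97L Flag-OGT pair was the widest apart. MRPL2, which lies beside the peptidyl transferase centre in bacteria, went from 26.4 and 24.4 to 52.5 and 58.6 FPKM in MHCC-97H and from 25.02 and 28.7 to 90.0 and 87.7 in MHCC-97L.

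Among small-subunit genes, MRPS31, a mitochondria-specific protein, had one of the lowest control levels. It read 4.13 and 4.41 FPKM in MHCC-97H controls and 17.4 and 15.8 with Flag-OGT, and 7.20 and 6.95 against 26.5 and 26.0 in MHCC-97L. Its changes of 1.74 ± 0.07 and 1.75 ± 0.07 were close to each other (adjusted p = 2.6e-09 and 2.9e-09). The annotation names 4 pseudogene copies of MRPS31, which could take or lend reads. MRPS21, the counterpart of bacterial S21, rose from 19.5 and 16.7 to 55.8 and 56.3 FPKM in MHCC-97H and from 41.1 and 46.9 to 124 and 124 in MHCC-97L. With 8 named copies it has the most pseudogenes of all members, and its level is uncertain for that reason. MRPS26, another mitochondria-specific protein, went from 38.7 and 31.2 to 118 and 118 FPKM in MHCC-97H and from 75.3 and 85.2 to 179 and 170 in MHCC-97L. MRPS14, a protein of the small-subunit head, went from 5.34 and 6.13 to 19.5 and 18.5 FPKM in MHCC-97H and from 5.90 and 4.92 to 14.7 and 15.7 in MHCC-97L. In each of these genes all Flag-OGT libraries of a line lay above its controls.

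The largest falls also came from genes of both subunits. MRPS35, a mitochondria-specific protein of the small subunit, read 85.2 and 91.4 FPKM in MHCC-97H controls and 30.9 and 30.4 with Flag-OGT, and 70.1 and 67.9 against 23.5 and 27.9 in MHCC-97L. It fell by 1.49 ± 0.08 and 1.39 ± 0.08 on the log2 scale (adjusted p = 2.4e-08 and 4.8e-08), and no Flag-OGT library came near a control. MRPS12, the counterpart of the bacterial decoding-centre protein S12, read 147 and 132 FPKM in MHCC-97H controls and 56.0 and 55.0 with Flag-OGT, and 139 and 137 against 62.1 and 61.4 in MHCC-97L. Its changes were -1.31 ± 0.06 and -1.15 ± 0.06, and its controls were at one level in both lines. MRPL24 fell from 279 and 276 to 137 and 135 FPKM in MHCC-97H and from 490 and 478 to 204 and 195 in MHCC-97L. MRPL13, the counterpart of bacterial L13, fell from 52.8 and 63.9 to 24.5 and 23.7 FPKM in MHCC-97H and from 51.4 and 45.7 to 27.4 and 27.2 in MHCC-97L. MRPL58, a peptidyl-tRNA hydrolase built into the large subunit, fell from 79.0 and 79.4 to 46.3 and 45.4 FPKM in MHCC-97H and from 112 and 110.1 to 50.1 and 49.3 in MHCC-97L. The genes that fell most thus encode both mitochondria-specific proteins and ones shared with bacteria.

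**Figure D3:**
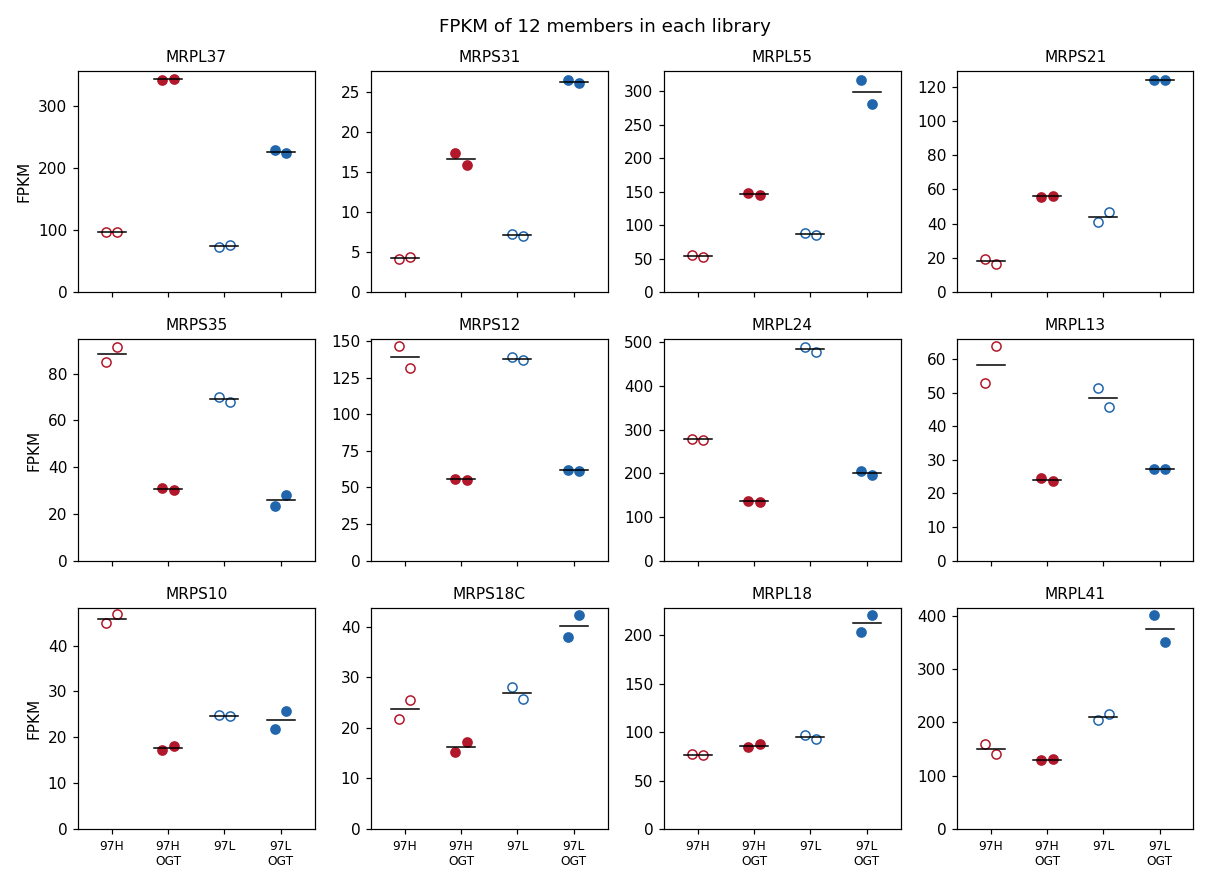
FPKM of 12 members in each library, with open points for control and filled points for Flag-OGT libraries of MHCC-97H (red) and MHCC-97L (blue) and a line at the mean of each group of 2. The upper row holds genes that rose in both lines, the middle row genes that fell in both, and the lower row genes whose change differed between the lines, such as MRPS10 with 44.9 and 46.8 against 17.1 and 18.0 FPKM in MHCC-97H.

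The test of the difference between the lines was called for 51 of 78 members. The change in MHCC-97H was smaller, or more negative, for 38 of them and larger for 13, while 29.4% and 33.9% of all tested genes were called lower and higher. The median difference of members was -0.22, beside 0.02 for all tested genes. Each of these 38 and 13 calls was kept under median-of-ratios scaling. That scaling hardly moved this contrast, with a median of 0.03 for all tested genes, so the kept calls say little. At a common sum, where the median of all tested genes was 0.07, the median difference of members was -0.15. The 2 changes share no library.

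The largest difference was in MRPS10, the counterpart of a bacterial small-subunit head protein. It fell from 44.9 and 46.8 to 17.1 and 18.0 FPKM in MHCC-97H, a change of -1.33 ± 0.07. In MHCC-97L it read 24.8 and 24.6 FPKM in the controls and 21.8 and 25.7 with Flag-OGT, overlapping groups, so that the difference was -1.27 ± 0.11 (adjusted p = 6.6e-06). MRPL18, which in bacteria holds the small ribosomal RNA of the large subunit, rose from 97.3 and 92.5 to 203 and 221 FPKM in MHCC-97L and from 77.0 and 75.9 to 84.3 and 88.0 in MHCC-97H, a difference of -0.98 ± 0.08. MRPL10, a protein of the stalk that recruits translation factors, went the other way. It rose from 24.9 and 22.7 to 58.6 and 55.1 FPKM in MHCC-97H and from 29.01 and 28.8 to 37.3 and 36.6 in MHCC-97L, a difference of 0.88 ± 0.09 (adjusted p = 1.9e-05). MRPS26, MRPS9 and MRPS27, a pentatricopeptide-repeat protein, also rose more in MHCC-97H, by 0.62, 0.57 and 0.53.

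The 6 members that fell in MHCC-97H and rose in MHCC-97L were MRPL1, MRPL3, MRPL17, MRPL27, MRPL41 and MRPS18C, of which all but MRPS18C belong to the large subunit. MRPS18C read 21.9 and 25.6 FPKM in MHCC-97H controls and 15.3 and 17.2 with Flag-OGT, and 28.1 and 25.6 against 38.0 and 42.4 in MHCC-97L. Its changes of -0.52 ± 0.09 and 0.56 ± 0.09 were called under each alternative tried, and the difference was -1.08 ± 0.13 (adjusted p = 7.3e-05). MRPL41 read 159 and 141 FPKM in MHCC-97H controls and 129 and 131 with Flag-OGT, and 204 and 217 against 401 and 350.0 in MHCC-97L. Its rise in MHCC-97L was 0.83 ± 0.08, but its fall in MHCC-97H, -0.20 ± 0.08, was lost without MHCC-97H control replicate 1 (-0.12) or either MHCC-97H Flag-OGT library (-0.19 and -0.21). That fall was also lost under quantile normalization (-0.099). MRPL1, the counterpart of the bacterial L1 stalk protein, had a fall in MHCC-97H (-0.31) that was lost without control replicate 2 (-0.22) or Flag-OGT replicate 1 (-0.24). MRPL3, MRPL17 and MRPL27, the last a protein near the peptidyl transferase centre in bacteria, fell by 0.45, 0.33 and 0.32 in MHCC-97H, the last by 0.20 without control replicate 2. Their rises in MHCC-97L, 0.24, 0.16 and 0.38, were lost under median-of-ratios scaling, where MRPL17 was at -0.05. Those of MRPL3 (0.13) and MRPL17 (0.044) were lost at a common sum too. The rise of MRPL17 was also lost without MHCC-97L control replicate 2 (0.10) or Flag-OGT replicate 1 (0.13).

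The difference was also called, with the lower value in MHCC-97H, for all 8 members that rose in MHCC-97L and were not called in MHCC-97H. A lower value was largely set by that choice. Such members were 10.3% of all members, beside 6.85% of all tested genes. MRPS17, the counterpart of bacterial S17, read 32.9 and 37.7 FPKM in MHCC-97H controls and 36.2 and 35.8 with Flag-OGT, and went from 33.0 and 35.2 to 64.7 and 69.1 in MHCC-97L. MRPL36, the counterpart of bacterial L36, read 53.2 and 59.1 against 56.7 and 54.7 FPKM in MHCC-97H and 58.3 and 58.6 against 106 and 104 in MHCC-97L. The other members of this kind were MRPL14, MRPL19, MRPS16, MRPS18A, MRPS30 and MRPS36, with differences of -0.54 to -0.70. In MHCC-97H, the libraries of MRPS17 and MRPL36 overlapped between the groups.

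The difference was likewise called lower for all 8 members that fell in MHCC-97H and were not called in MHCC-97L, again largely by the choice. Such members were 10.3% of all members, beside 5.61% of all tested genes, and MRPS10 among them is described above. MRPL50, a mitochondria-specific protein, fell from 25.9 and 27.7 to 14.4 and 14.7 FPKM in MHCC-97H and read 25.6 and 23.3 against 24.3 and 28.4 in MHCC-97L. MRPL42, also mitochondria-specific, fell from 20.2 and 24.1 to 12.2 and 12.01 FPKM in MHCC-97H and read 20.2 and 20.01 against 16.9 and 19.6 in MHCC-97L. Their changes in MHCC-97H were -0.84 and -0.81, and in MHCC-97L the groups of MRPL50 overlapped. The others were MRPL15, MRPL20, MRPL32, MRPL53 and MRPS33, with changes in MHCC-97H of -0.15 to -0.58 and in MHCC-97L of -0.16 to 0.08.

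Members that rose to a like extent in both lines included MRPL4 and MRPL40. MRPL4, a protein that lines the peptide tunnel, went from 86.7 and 76.5 to 161 and 162 FPKM in MHCC-97H and from 65.8 and 73.0 to 156 and 150.3 in MHCC-97L, a difference of -0.15 ± 0.10. MRPL40, a mitochondria-specific protein, went from 33.5 and 35.5 to 68.5 and 68.0 FPKM in MHCC-97H and from 52.5 and 53.1 to 114 and 115 in MHCC-97L, a difference of -0.13 ± 0.07. Neither difference was called, which does not show that the changes were equal.

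**Figure D4:**
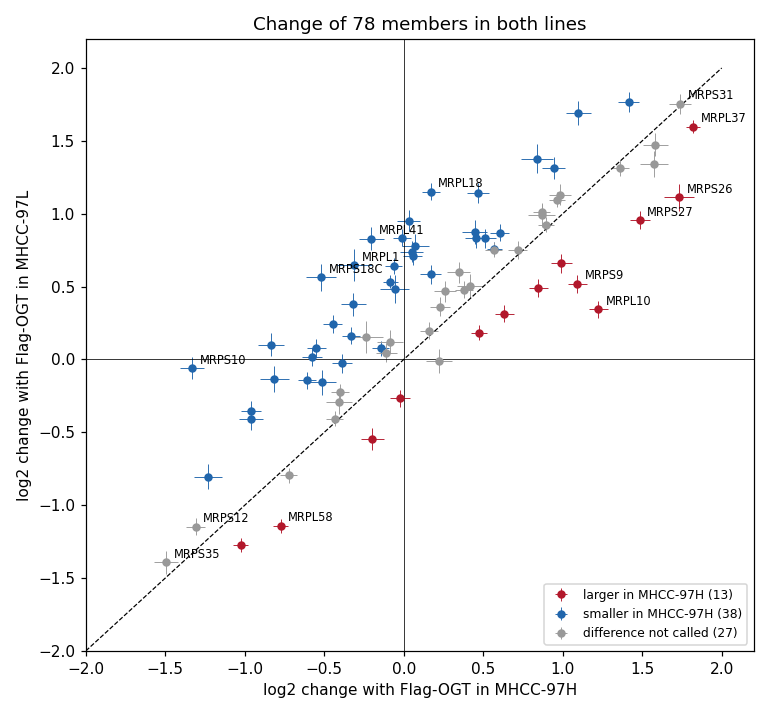
Change with Flag-OGT of each member in MHCC-97H (horizontal) and MHCC-97L (vertical) on the log2(FPKM + 1) scale, with SE bars; the dashed line marks equal change. Blue points (38) had a smaller change in MHCC-97H by the test of the difference, red points (13) a larger one and grey points (27) were not called; most members lie above the line.

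By place in the particle, and among members alone, the genes of small-subunit proteins found only in mitochondria had the highest median in MHCC-97H. Of these 9 genes, MRPS22, MRPS25, MRPS26, MRPS27, MRPS31 and MRPS34 rose in both lines and MRPS23 and MRPS35 fell in both, while MRPS33 fell in MHCC-97H alone. Thus 66.7% rose and 33.3% fell in MHCC-97H (median 0.99), and 66.7% and 22.2% did so in MHCC-97L (median 0.66). MRPS25 went from 7.95 and 7.96 to 21.8 and 22.1 FPKM in MHCC-97H and from 10.3 and 10.2 to 26.5 and 27.7 in MHCC-97L. Of the 17 genes of small-subunit proteins shared with bacteria, 8 rose and 6 fell in MHCC-97H (47.1% and 35.3%, median 0.03). In MHCC-97L 11 of them rose and 4 fell (64.7% and 23.5%, median 0.48). The 30 genes of large-subunit proteins shared with bacteria were the lowest class in MHCC-97H, where 13 rose and 12 fell (43.3% and 40%) around a median of -0.07. In MHCC-97L 20 of these rose and 5 fell (66.7% and 16.7%) around a median of 0.42. Of the 21 genes of large-subunit proteins found only in mitochondria, 12 rose and 6 fell in MHCC-97H (57.1% and 28.6%, median 0.22). In MHCC-97L 14 of them rose and 3 fell (66.7% and 14.3%, median 0.60). Beside these, 48.2% of all tested genes rose and 36.3% fell in MHCC-97H, around a median of 0.15. For MHCC-97L the shares were 50.1% and 34.7%, around a median of 0.19. Both classes shared with bacteria thus lay near the shares of all tested genes in MHCC-97H. The classes were not tested against each other. They leave out the 5 mitoribosome proteins with other symbols, which had medians of -0.04 in MHCC-97H and 0.29 in MHCC-97L. DAP3 of the small subunit is among those left out, so the order of the classes holds for members only.

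Symbols do not always give the place of a protein. MRPS18A, MRPS18B and MRPS18C are 3 paralogs of bacterial S18, of which MRPS18A is found in the large subunit. MRPS18B rose in both lines, from 48.5 and 50.9 to 63.7 and 66.2 FPKM in MHCC-97H and from 39.8 and 37.6 to 53.0 and 55.6 in MHCC-97L. MRPS18A read 51.8 and 47.6 FPKM in MHCC-97H controls and 52.1 and 51.3 with Flag-OGT, overlapping groups, and rose from 31.6 and 33.7 to 55.8 and 52.2 in MHCC-97L. Each paralog thus had another pattern, with MRPS18C falling in 1 line and rising in the other. The difference between lines was called for MRPS18A (-0.65 ± 0.09) and MRPS18C and not for MRPS18B (-0.10 ± 0.08, adjusted p = 0.298). MRPS30, also a large-subunit protein, read 23.6 and 23.9 FPKM in MHCC-97H controls and 24.4 and 24.8 with Flag-OGT, and rose from 17.2 and 15.1 to 26.4 and 28.98 in MHCC-97L. MRPS36, now known as a subunit of the 2-oxoglutarate dehydrogenase complex and not of the ribosome, read 5.28 and 6.04 FPKM in MHCC-97H controls, 6.32 and 5.68 with Flag-OGT, and rose from 8.01 and 7.21 to 13.4 and 14.1 in MHCC-97L.

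MRPL12, the stalk protein that also binds the mitochondrial RNA polymerase, had the highest mean of all members. It read 267 and 233 FPKM in MHCC-97H controls and 217 and 217 with Flag-OGT, and fell from 396 and 419 to 295 and 263 in MHCC-97L, a change of -0.55 ± 0.08 (adjusted p = 5.8e-05). The smaller fall in MHCC-97H, -0.20 ± 0.08 (adjusted p = 0.031), was lost without control replicate 1 (-0.10) or either Flag-OGT library (-0.20). Under quantile normalization (-0.077) it was lost too. MRPL10, its partner in the stalk, rose in both lines.

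Without Flag-OGT, members were more often lower in MHCC-97H than in MHCC-97L. Between the controls 15 members were called higher in MHCC-97H and 40 lower, where 26.5% and 38.9% of all tested genes were called. The median of members was -0.20, beside -0.07 for all tested genes. Under median-of-ratios scaling 30 members were higher and 32 lower, with a median of -0.05, so the balance between lines depended on the scaling. MRPS21 and MRPS26 stood lowest in MHCC-97H, by -1.24 ± 0.08 and -1.18 ± 0.09, at 19.5 and 16.7 against 41.1 and 46.9 FPKM for MRPS21. MRPL23 (-0.97), a protein at the exit of the peptide tunnel, MRPL24 (-0.80) and MRPL38 (-0.76) followed. MRPS10 stood highest, by 0.86 ± 0.07, with MRPS18A (0.59), MRPS30 (0.53), MRPS16 (0.53) and MRPL37 (0.37) next.

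With Flag-OGT the lines lay further apart. Of the members 10 were called higher in MHCC-97H and 57 lower, where 33.6% and 36.1% of all tested genes were called, and the median was -0.48, beside -0.02. The libraries did not overlap for 12 members higher and 62 lower, against 40.5% and 44.0% of all tested genes. MRPL41 was lowest in MHCC-97H, by -1.52 ± 0.08, then MRPL18 (-1.29), MRPS18C (-1.26), MRPS21 (-1.13) and MRPL1 (-1.12). MRPS27 (0.62), MRPL10 (0.61), MRPL37 (0.60), MRPL45 (0.44), which anchors the ribosome to the inner membrane, and MRPL49 (0.42) were highest. Under median-of-ratios scaling 14 members were higher and 47 lower. This comparison shares its Flag-OGT libraries with those above.

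A further 5 proteins of the mitoribosome carry other symbols. DAP3, a GTP-binding protein of the small subunit, fell from 180.2 and 198 to 80.2 and 81.1 FPKM in MHCC-97H and from 166 and 154 to 68.5 and 71.1 in MHCC-97L, by 1.22 and 1.19 on the log2 scale. GADD45GIP1, a large-subunit protein, rose from 102 and 78.8 to 141 and 146 FPKM in MHCC-97H and from 117 and 138 to 367 and 324 in MHCC-97L. CHCHD1 fell in MHCC-97H (-0.38) and rose in MHCC-97L (0.29). AURKAIP1 rose in MHCC-97L (0.36) and was at 0.09 in MHCC-97H. PTCD3 rose in MHCC-97L by 0.24 and was at -0.04 in MHCC-97H. The call in MHCC-97L was lost without control replicate 2 (0.16) or Flag-OGT replicate 2 (0.18). At a common sum (0.13) and under median-of-ratios scaling (0.044) it was lost too.

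The machinery around the mitoribosome moved in both directions. The shares to read its counts against are those of all tested genes, which in MHCC-97H were 48.2% higher and 36.3% lower, and in MHCC-97L 50.1% higher and 34.7% lower. Of 27 assembly and rRNA modification factors, 13 rose and 9 fell in MHCC-97H (48.1% and 33.3%, near those shares), while 17 rose and 5 fell in MHCC-97L (63.0% and 18.5%). DHX30, an RNA helicase of mitochondrial RNA granules, rose by 1.84 and 1.78, and TFB1M, which methylates the small ribosomal RNA, by 1.51 and 1.72. MTERF3, a regulator of mitochondrial transcription and assembly, fell by 1.52 and 0.87. Of 17 translation factors, 7 rose and 5 fell in MHCC-97H, while 9 rose and 3 fell in MHCC-97L (52.9% and 17.6%). The elongation factor TUFM rose from 187 and 178 to 310 and 322 FPKM in MHCC-97H and from 226 and 229 to 299 and 291 in MHCC-97L, and the elongation factor GFM1 fell by 0.90 and 0.69. LRPPRC, which stabilises mitochondrial mRNA, fell by 0.47 and 0.43.

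Most genes on a list of mitochondrial tRNA synthetases rose in each line. The list also holds GATB, GATC and QRSL1, which are not synthetases, and GARS and KARS, which serve the cytosol too. Of 22, 17 rose and 3 fell in MHCC-97H (77.3% and 13.6%), while 14 rose and 3 fell in MHCC-97L (63.6% and 13.6%). The difference between lines was called higher for 13 of the 22 and lower for 4 (59.1% and 18.2%). Among the 78 members it was higher for 13 and lower for 38 (16.7% and 48.7%). Among all tested genes it was higher for 33.9% and lower for 29.4%. The lists were not tested against each other. LARS2 rose by 2.02 in MHCC-97H, and AARS2 and LARS2 by 1.59 and 1.55 in MHCC-97L. Of 22 genes of mitochondrial transcription and RNA processing, 8 rose and 9 fell in MHCC-97H (36.4% and 40.9%), while 15 rose and 3 fell in MHCC-97L (68.2% and 13.6%). The polymerase gene POLRMT rose by 0.57 and 1.15, and the transcription factor TFB2M fell by 1.36 and 1.22. Of 25 protein import genes, 10 rose and 12 fell in MHCC-97H (40.0% and 48.0%), while 18 rose and 3 fell in MHCC-97L (72.0% and 12%), with TOMM22 up by 0.95 and 1.29 and TOMM5 down by 1.35 and 0.71.

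The nuclear-encoded subunits of respiratory complexes rose more often than they fell in both lines, as did all tested genes (48.2% against 36.3% in MHCC-97H and 50.1% against 34.7% in MHCC-97L). Of 37 complex I genes, 23 rose and 8 fell in MHCC-97H (62.2% and 21.6%), while 27 rose and 6 fell in MHCC-97L (73.0% and 16.2%). Of 35 genes of complexes III, IV and V, 21 rose and 11 fell in MHCC-97H (60.0% and 31.4%), and 23 rose and 7 fell in MHCC-97L (65.7% and 20%). Complex II, which has no mitochondrially encoded subunit, has 4 genes, of which 2 rose and 1 fell in MHCC-97H, while 1 rose in MHCC-97L. Most genes for proteins of the cytosolic ribosome rose. Of 77, 67 rose and 6 fell in MHCC-97H around a median of 0.91, and 73 rose and 2 fell in MHCC-97L around a median of 1.12. Lists and members come from 1 fit and were not tested against each other.

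**Figure D5:**
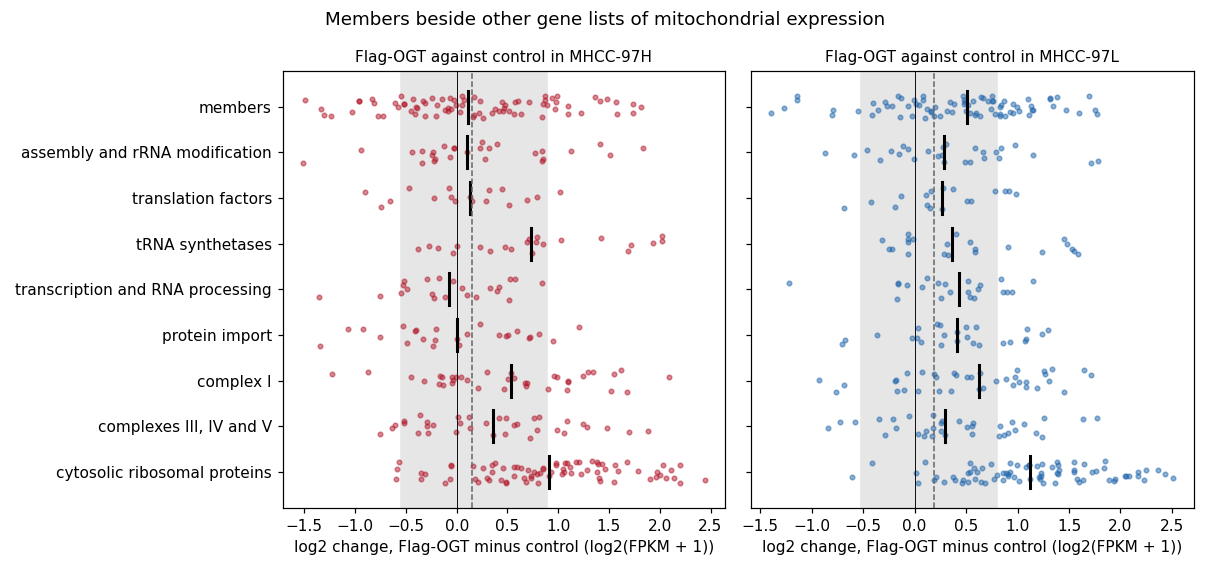
Change with Flag-OGT of each gene of the members and of 8 other lists, in MHCC-97H (left) and MHCC-97L (right), on the log2(FPKM + 1) scale. Black bars are list medians, the dashed line is the median and the grey band the quartiles of all tested genes; the members' median is 0.12 on the left and 0.51 on the right, and that of cytosolic ribosomal proteins 0.91 and 1.12.

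Of 12 regulators of nuclear genes for mitochondrial proteins, 11 were tested, and 7 rose and 2 fell in MHCC-97H, while 6 rose and 2 fell in MHCC-97L. The share that rose, 63.6% and 54.5%, stood beside 48.2% and 50.1% of all tested genes. MYC, which can drive ribosome synthesis, had opposite changes. It rose from 36.4 and 35.1 to 102 and 103 FPKM in MHCC-97H and fell from 28.6 and 29.6 to 21.5 and 20.04 in MHCC-97L, and the change was larger by 1.96 in MHCC-97H (adjusted p = 8.0e-08). NRF1 rose by 0.85 and 0.64, from 5.13 and 4.82 to 9.76 and 9.77 FPKM in MHCC-97H. GABPA, the DNA-binding subunit whose letters were searched above, rose by 0.52 in MHCC-97L and by 0.31 in MHCC-97H. GABPA lost the latter call under median-of-ratios scaling, under quantile normalization (0.15) and without control replicate 1 (0.23). Its partner GABPB1 fell from 15.3 and 14.2 to 7.87 and 8.41 FPKM in MHCC-97H and read 13.4 and 13.0 against 12.9 and 13.3 in MHCC-97L. ESRRA, a nuclear receptor of energy metabolism, fell by 0.97 in MHCC-97H and fell by 1.202 in MHCC-97L.

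The coactivators PPARGC1B and PPRC1 rose by 1.52 and 0.41 in MHCC-97H and by 1.04 and 1.10 in MHCC-97L, and PPARGC1A was at 0.03 to 0.45 FPKM and not tested. HCFC1, a chromatin cofactor known to bind OGT, rose by 0.93 and 0.95. TFAM, which packages mitochondrial DNA, rose in MHCC-97L by 0.51 and was at 0.10 in MHCC-97H. YY1 was at 0.17 in MHCC-97H, a call lost without any 1 of the 4 libraries of that line (0.15 to 0.19) and turned to -0.025 by median-of-ratios scaling, and at -0.07 in MHCC-97L. E2F1 was called in neither line.

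Neighbours on the chromosome did not always move together. In the GENCODE annotation 29 members start within 1000 bases of a protein-coding gene on the opposite strand. Since MRPL46 and MRPS11 face each other, these are 28 pairs. Both genes were called in 20 of them in MHCC-97H and 19 in MHCC-97L, in the same direction in 13 and 13. Of all tested genes 48.2% rose and 36.3% fell in MHCC-97H, and 50.1% and 34.7% did so in MHCC-97L. Many unrelated genes would thus be called in the same direction too, and no share was worked out for such pairs. MRPL46 and MRPS11 start 34 bases apart and moved in opposite directions in both lines. MRPL46 rose from 21.3 and 18.8 to 25.1 and 29.2 FPKM in MHCC-97H, while MRPS11 fell from 31.5 and 33.7 to 24.9 and 23.9. MRPS12 and SARS2, a mitochondrial tRNA synthetase gene 348 bases away whose exons overlap it, also parted in MHCC-97H, where SARS2 rose from 20.2 and 17.5 to 31.1 and 31.9 FPKM. In all, 34 members have a named pseudogene copy and the exons of 29 overlap another gene of the table, which limits how far reads can be assigned to them.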

How the data were processed

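RNA of 8 libraries, 2 in each of 4 groups, was analysed from the FPKM values per gene that the authors deposited. Per the labels' protocols, Trizol served to extract the RNA and a SMARTer kit to make the libraries. The submitters' processing notes name Bowtie2, HISAT2 2.1.0, RSEM 1.2.4, DESeq2 1.18.1 and hg19; the sources used here do not give which of these made the FPKM, and depth is unknown. Of 18928 rows, 26 with a date for a symbol were left out, and 55 with a number were tested but not named. A mean FPKM of 0.5 was required, which left 13553 tested genes. In limma 3.58.1 (R 4.3.3), 4 group means were fitted to log2(FPKM + 1), with a trended empirical Bayes spread and 4 residual degrees of freedom, for 5 contrasts. The procedure was tested on simulated data with independent noise and few changed genes. That setting differs from these contrasts, where most genes were called, so it does not show how reliable the calls are here. The fit was repeated with no filter, a filter of 2, a pseudocount of 0.1, common-sum, median-of-ratios and quantile scaling, no trend, a replicate block and each library left out. Promoters came from RefSeq (GRCh38.p14), and neighbours, overlaps and pseudogenes from GENCODE by symbol, a build other than hg19. Python 3.11.15, pandas 2.3.3, numpy 2.4.6 and matplotlib 3.10.9 were also used.

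Named were the 5 highest and 5 lowest changes per contrast, the 3 highest and 3 lowest mean levels, the leading members of each group, members called in opposite directions, members and factors with known roles, the regulators and the called ends of each list. MRPS25, MRPL46, MRPS11, MRPL4, MRPL40 and the genes listed by class, or called in one or neither line, were named outside this rule after their values were seen. One gene that the rule names is not reported here. The members and all lists were chosen with earlier results of these data known.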

Additional observations from a re-analysis of the deposited data

Results flagged for a closer look

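The change with Flag-OGT differed between the lines, by the limma test of the difference adjusted over all tested genes, for 35 of the named genes, 14 with a larger and 21 with a smaller value in MHCC-97H. All values are log2 changes in MHCC-97H minus those in MHCC-97L. Many named genes were picked for extreme changes or for opposite calls in the lines, and others for level or role. Their share is thus no measure of how common a difference is.

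Among large-subunit members the difference was negative for MRPL41 (-1.03), MRPL18 (-0.98), MRPL1 (-0.96), MRPL27 (-0.70), MRPL3 (-0.69), MRPL2 (-0.59), MRPL19 (-0.54), MRPL17 (-0.49), MRPL13 (-0.43) and MRPL55 (-0.35). It was positive for MRPL10 (0.88), MRPL58 (0.37), MRPL45 (0.36), MRPL12 (0.35), MRPL24 (0.25), MRPL38 (0.24) and MRPL37 (0.22). The call of MRPL12 was lost without MHCC-97L control replicate 2 (0.31) or MHCC-97L Flag-OGT replicate 2 (0.27). That of MRPL37 was lost without either MHCC-97H Flag-OGT library (0.22) or MHCC-97L control replicate 2 (0.20), and its value was 0.51 under quantile normalization.

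Among members named MRPS it was negative for MRPS10 (-1.27), MRPS18C (-1.08), MRPS16 (-0.70), MRPS36 (-0.70), MRPS30 (-0.69) and MRPS18A (-0.65), and positive for MRPS26 (0.62), MRPS9 (0.57) and MRPS27 (0.53).

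Among other genes it was positive for MYC (1.96), PPARGC1B (0.49), TUFM (0.42) and YY1 (0.25), and negative for GABPB1 (-0.77), PPRC1 (-0.69), POLRMT (-0.57), TFAM (-0.41) and PTCD3 (-0.28). The calls of YY1, TFAM and PTCD3 were lost when single libraries were left out, for YY1 in 7 of 8 cases (0.16 to 0.28), for TFAM in 6 (-0.47 to -0.24) and for PTCD3 in 5 (-0.30 to -0.20). The call of PPARGC1B was lost under quantile normalization (0.17), and its value was 0.83 with a pseudocount of 0.1.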

How the results depend on the processing

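The scaling mattered most. Common-sum rescaling, scaling by median of ratios and quantile normalization moved the median change of all tested genes in MHCC-97H from 0.15 to 0.11, -0.003 and 0.02, and in MHCC-97L from 0.19 to 0.10, 0.02 and 0.17. The median change of members was 0.065 in MHCC-97H, 0.39 in MHCC-97L, -0.15 for the difference, -0.066 between controls and -0.29 between Flag-OGT libraries at a common sum. Under median-of-ratios scaling it was -0.069 in MHCC-97H, the reverse of the reported direction, 0.31 in MHCC-97L, -0.045 between controls and -0.32 between Flag-OGT libraries. Under quantile normalization it was -0.15 between controls and -0.40 between Flag-OGT libraries. Members higher in MHCC-97H controls than in MHCC-97L controls numbered 27 at a common sum and 30 under median-of-ratios scaling, against 15. The ratio of summed FPKM was 1.10 and 0.994 in MHCC-97H and 1.204 and 1.13 in MHCC-97L under these 2 scalings. Other counts of called members stayed within 1.5 times the reported ones.

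Named genes whose value changed sign had values near 0. At a common sum these were MRPS18A (-3.06e-05), MRPS30 (-0.0046) and E2F1 (-0.054) in MHCC-97H, and HCFC1 (0.052), LRPPRC (0.012) and DAP3 (0.030) for the difference. Under median-of-ratios scaling they were MRPS36 (-0.10), MRPS18A (-0.15), MRPS30 (-0.15), YY1 (-0.025), TFAM (-0.091) and E2F1 (-0.20) in MHCC-97H and MRPL17 (-0.046) in MHCC-97L. Under quantile normalization they were MRPS36 (-0.033), MRPS30 (-0.0045) and E2F1 (-0.020) in MHCC-97H, GABPB1 (0.00057) in MHCC-97L and HCFC1 (0.022) for the difference.

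Other called changes of named genes moved by over 1.5 times without changing sign. With a pseudocount of 0.1 the change of PPARGC1B was 2.56 in MHCC-97H and 1.73 in MHCC-97L. Under median-of-ratios scaling the change in MHCC-97H was -0.49 for MRPL1, -0.41 for MRPL41, -0.40 for MRPL12, -0.52 for MRPL27, -0.53 for MRPL17, 0.18 for MRPS18B, 0.16 for GABPA, 0.21 for PPRC1 and 0.38 for POLRMT. In MHCC-97L it was 0.30 for MRPL19, 0.36 for MRPS18C, 0.17 for MRPL27, 0.036 for MRPL3, 0.27 for MRPS18B, 0.33 for TFAM, 0.16 for TUFM and 0.044 for PTCD3. Of these calls, those of GABPA in MHCC-97H and of MRPL27, MRPL3 and PTCD3 in MHCC-97L were lost. At a common sum the change was 0.13 for MRPL3, 0.044 for MRPL17 and 0.13 for PTCD3 in MHCC-97L, and these calls were lost. Under quantile normalization it was -0.099 for MRPL41, -0.077 for MRPL12 and 0.15 for GABPA in MHCC-97H, and these calls were lost. MRPL37 was then higher in MHCC-97H by 0.97 between Flag-OGT libraries.

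With each library left out, the median of members between controls ran from -0.25 to -0.14. In MHCC-97H the change ran from -0.0097 to 0.16 for MRPS36, -0.0047 to 0.11 for MRPS18A, -0.056 to 0.059 for E2F1, -0.094 to 0.012 for PTCD3 and -0.071 to 0.27 for TFAM. In MHCC-97L it ran from -0.032 to 0.015 for GABPB1 and -0.16 to 0.014 for YY1. For the difference it ran from -0.11 to 0.091 for HCFC1, -0.013 to 0.10 for E2F1, -0.097 to 0.035 for DAP3 and -0.12 to 0.032 for LRPPRC. A lone remaining library of a group was assumed to vary like the others.

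With the replicate number as a block, 39 members rose and 27 fell in MHCC-97H, 52 and 13 did so in MHCC-97L, and the difference was called for 13 and 38; the calls of YY1, TFAM and PTCD3 for the difference were lost. Libraries with the same number did not deviate together (correlations of -0.03 in MHCC-97H, -0.10 in MHCC-97L, -0.21 between the controls and -0.03 between the Flag-OGT groups over 13553 genes), so the numbers were taken only as names. With 2 libraries a group, unknown depth and most genes called in each contrast, a call says little about what sets a gene apart.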
